A study of Homo sapiens with 6 samples.

Results

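The 9 genes described here encode T cell proteins: the CD3 chains of the T cell receptor complex (CD3D, CD3E, CD3G and CD247), its kinases LCK and ZAP70, the surface proteins CD2 and CD7, and the pore-forming protein PRF1. They were picked by gene symbol from a table of 34114 genes, and all 9 were found in it. The choice was made with their levels in these libraries known, so their levels, line differences and shRNA ratios are given as descriptions with no test. Only 4 of the 9 are chains of the receptor complex itself.

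RNA was sequenced from 3 established human acute myeloid leukemia (AML) cell lines, NOMO-1, MOLM-14 and SKM-1, 72 h after transfection of a short hairpin RNA (shRNA). In 3 libraries the hairpin was directed against NCAM1 (the adhesion molecule CD56), called sh-NCAM1 in the labels, and in the other 3 it was a scrambled control. The labels do not say whether the same hairpin against NCAM1 was used in all 3 lines. There was 1 library for each line and hairpin, each line is a single cell population, and the labels do not say whether libraries came from separate cultures. The p-values below therefore measure only the spread between these samples, which may be technical. That spread is what was left after line and hairpin were fitted, so it includes how far the hairpin difference varied between the lines. Levels are read counts per gene divided by the authors' size factor for each library, called normalized counts.

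The T cell receptor binds peptide and MHC but has no signalling domain of its own. It is assembled with CD3 delta, epsilon and gamma chains and a CD247 (zeta) dimer, whose cytoplasmic tails carry the tyrosine motifs called ITAMs. LCK phosphorylates these motifs and ZAP70 then binds to them. These genes are characteristic of T cells, although AML blasts can carry lymphoid antigens such as CD7.

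Libraries held 41916991 to 47688779 gene-assigned reads, so 1 read was worth 0.912 to 1.115 normalized counts. The NCAM1 count was lower with the NCAM1 shRNA in all 3 lines, at 312 against 1163 with the control shRNA in NOMO-1, at 1896 against 6004 with the control shRNA in MOLM-14 and at 101 against 12537 with the control shRNA in SKM-1. The SKM-1 libraries stood further apart from each other than those of the other lines: log2 values correlated across genes at 0.919 in SKM-1, 0.978 in NOMO-1 and 0.988 in MOLM-14. Of 15 myelomonocytic markers, 14 or 15 reached 10 normalized counts in every library. Of 15 T cell markers, 13 were found, and their summed level was 4674 with the NCAM1 shRNA and 6176 with the control shRNA in NOMO-1. It was 8019 with the NCAM1 shRNA and 7076 with the control shRNA in MOLM-14, and 2043 with the NCAM1 shRNA and 7644 with the control shRNA in SKM-1, sums led by CD4 in both of these lines. Of the 13, 9 reached 10 normalized counts in each NOMO-1 library, against 6 or 7 in MOLM-14 and 4 or 5 in SKM-1. The 13 include CD3D, CD3E, CD3G and CD247, which were chosen with their levels known. Nothing is therefore read from the difference in these numbers between the lines. In bulk RNA, fewer cells of a type and less RNA per cell cannot be told apart.

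CD3D, CD3E and CD3G were higher in NOMO-1, at 143 to 3789 normalized counts, than in the other lines, at 0 to 20.9. CD3D, the delta chain (ENSG00000167286, chromosome 11), stood at 2961 normalized counts with the NCAM1 shRNA and 3789 with the control shRNA in NOMO-1. In MOLM-14 it stood at 20.9 with the NCAM1 shRNA and 20.1 with the control shRNA. In SKM-1 it stood at 1.84 with the NCAM1 shRNA and at 0 with the control shRNA. Both NOMO-1 libraries lay far above the other 4, and both MOLM-14 libraries lay above both SKM-1 libraries. Pooling the 2 libraries of a line, CD3D was 164-fold higher in NOMO-1 than in MOLM-14 (95% counting interval 120 to 232) and 3491-fold higher than in SKM-1 (966 to 28835). The second interval is wide because SKM-1 gave 2 reads in all.

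CD3E, the epsilon chain (ENSG00000198851, chromosome 11), was at 143 with the NCAM1 shRNA and 151 with the control shRNA in NOMO-1. It was at 2.09 with the NCAM1 shRNA and 2.23 with the control shRNA in MOLM-14, and at 4.59 with the NCAM1 shRNA and 1.02 with the control shRNA in SKM-1. The MOLM-14 values lay within the range of the SKM-1 values, so these lines are not ordered for CD3E. The pooled level in NOMO-1 was 68.2-fold that of MOLM-14 (26.4 to 252) and 50.8-fold that of SKM-1 (23.1 to 139.6).

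CD3G, the gamma chain (ENSG00000160654, chromosome 11), was at 155 with the NCAM1 shRNA and 168 with the control shRNA in NOMO-1. Both MOLM-14 libraries had 0 reads, as did the SKM-1 library with the NCAM1 shRNA, and the SKM-1 control library had 1 read. A library with 0 reads allows a level of up to 3 reads, or 3.13 normalized counts with the NCAM1 shRNA and 3.35 with the control shRNA in MOLM-14. CD3G was at least 99.8-fold higher in NOMO-1 than in MOLM-14, with MOLM-14 set to 3 reads over both libraries, and 335-fold higher than in SKM-1 (59.7 to 13263).

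The 3 CD3 chains differed from each other in level within NOMO-1. Per kilobase of annotated exon, CD3D was at 3188 normalized counts with the NCAM1 shRNA and 4078 with the control shRNA. CD3E was at 50.4 with the NCAM1 shRNA and 53.1 with the control shRNA, and CD3G at 40.4 with the NCAM1 shRNA and 43.8 with the control shRNA. CD3D therefore exceeded CD3E by 63.3-fold with the NCAM1 shRNA and 76.7-fold with the control shRNA on the per-length scale. The exon length of each gene covers all its annotated transcripts, so the scale is lower than the true one for genes with long, rarely used exons.

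CD247 (ENSG00000198821, chromosome 1), the zeta chain, was low in NOMO-1 and highest in the SKM-1 control. It was at 7.30 with the NCAM1 shRNA and 3.78 with the control shRNA in NOMO-1, and at 11.5 with the NCAM1 shRNA and 7.81 with the control shRNA in MOLM-14. In SKM-1 it was at 40.4 with the NCAM1 shRNA and 428 with the control shRNA. Both SKM-1 values lay above all 4 others, while both NOMO-1 values lay below both MOLM-14 values, by a few reads each. The NOMO-1 libraries held 8 reads with the NCAM1 shRNA and 4 with the control shRNA. Pooled over its libraries, SKM-1 was 40.3-fold above NOMO-1 (22.8 to 78.5) and 23.1-fold above MOLM-14 (14.5 to 39.3). On the log2 scale of normalized count + 1, the difference between NOMO-1 and the mean of the other lines was -2.57 for CD247, against 9.12 for CD3D, 5.51 for CD3E and 7.09 for CD3G.

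LCK (ENSG00000182866, chromosome 1), the kinase that phosphorylates the CD3 tails, was at 229.9 with the NCAM1 shRNA and 539 with the control shRNA in NOMO-1. MOLM-14 and SKM-1 each had 1 read with the NCAM1 shRNA and 0 reads with the control shRNA. NOMO-1 was 708-fold higher than MOLM-14 (127 to 28012) and 792-fold higher than SKM-1 (142 to 31316).

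ZAP70 (ENSG00000115085, chromosome 2), the kinase recruited to phosphorylated ITAMs, was low in all 3 lines. It was at 18.2 with the NCAM1 shRNA and 17.9 with the control shRNA in NOMO-1, at 7.31 with the NCAM1 shRNA and 2.23 with the control shRNA in MOLM-14, and at 6.43 with the NCAM1 shRNA and 4.06 with the control shRNA in SKM-1. Both NOMO-1 values were above the other 4, while MOLM-14 and SKM-1 overlapped. The pooled fold was 3.73 against MOLM-14 (1.78 to 8.76) and 3.41 against SKM-1 (1.71 to 7.39). Its mean of 9.37 normalized counts was just below the minimum of 10 used for testing.

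The perforin gene PRF1 (ENSG00000180644, chromosome 10), which encodes the protein that forms pores in target cells, was at 169 with the NCAM1 shRNA and 199 with the control shRNA in NOMO-1. It was at 7.31 with the NCAM1 shRNA and 15.6 with the control shRNA in MOLM-14, and at 0.918 with the NCAM1 shRNA and 2.03 with the control shRNA in SKM-1. The 3 lines did not overlap, with NOMO-1 highest and SKM-1 lowest. NOMO-1 exceeded MOLM-14 by 16.2-fold (10.5 to 26.5) and SKM-1 by 127-fold (43.1 to 619).

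The 2 remaining surface genes did not share the NOMO-1 pattern. CD2 (ENSG00000116824, chromosome 1), an adhesion receptor that binds CD58, was at 8.21 with the NCAM1 shRNA and 2.83 with the control shRNA in NOMO-1, at 0 in both MOLM-14 libraries, and at 39.5 with the NCAM1 shRNA and 4.06 with the control shRNA in SKM-1. CD7 (ENSG00000173762, chromosome 17), an early T lineage surface antigen, was at 3.65 with the NCAM1 shRNA and 1.89 with the control shRNA in NOMO-1, at 9.395 with the NCAM1 shRNA and 3.35 with the control shRNA in MOLM-14, and at 0.918 with the NCAM1 shRNA and 4.06 with the control shRNA in SKM-1. NOMO-1 and SKM-1 overlapped for both genes, and for CD7 all 3 lines overlapped. CD7 had at most 9 reads in a library, so differences between lines were not detectable at this depth.

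**Figure D1:**
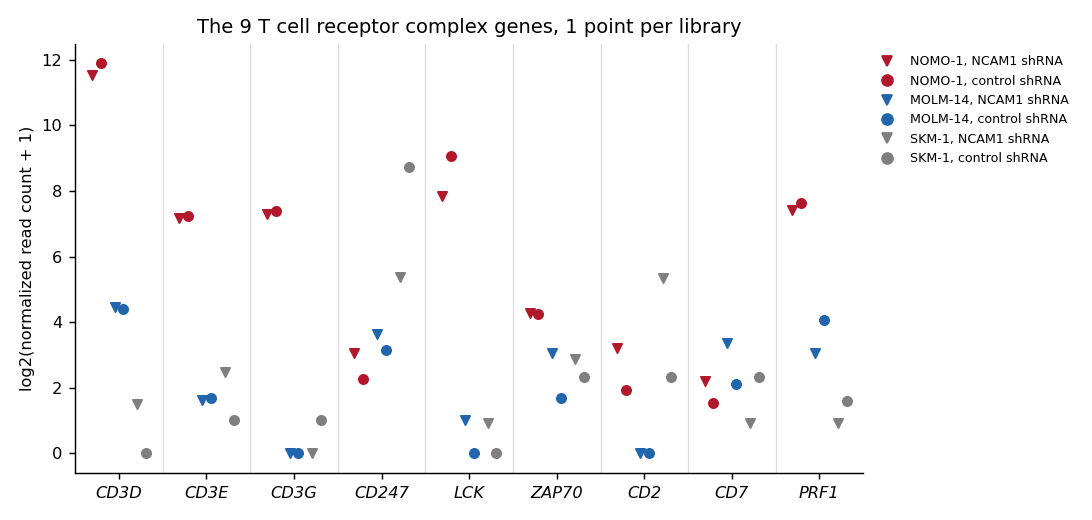
Levels of the 9 genes in the 6 libraries as log2(normalized read count + 1), with NOMO-1 in red, MOLM-14 in blue and SKM-1 in grey, triangles for the NCAM1 shRNA and circles for the control shRNA, 1 point per library. The NOMO-1 points of CD3D, CD3E, CD3G, LCK and PRF1 stand far above those of the other lines, and the SKM-1 control is highest for CD247, at 428 normalized counts.

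Across the 9 genes, 6 had both NOMO-1 libraries above all 4 others, which is true of 15.4% of all tested genes. In 5 of them (CD3D, CD3E, CD3G, LCK and PRF1) both were at least 10-fold above all 4 others on normalized count + 1, against 1.54% of tested genes. A mean of 10 normalized counts was reached by 6 of the 9 genes. ZAP70, CD2 and CD7 were below it and were not tested. These genes were chosen for this pattern, and 4 of the 6 (CD3E, CD3G, LCK and PRF1) had a mean under 10 in the other 4 libraries and passed that minimum only through NOMO-1, so nothing is read from the counts. Over all tested genes, the limma fit called 8.01% higher and 5.08% lower in NOMO-1 than in the mean of the other lines, at an adjusted p under 0.05 and at least 2-fold. It called 8.01% higher and 5.26% lower against MOLM-14 alone, and 7.78% higher and 5.93% lower against SKM-1 alone. Without either NOMO-1 library, the fit called 0 of 19575 genes against the mean of the other lines. It called 1328 to 1364 without a MOLM-14 library and 4448 to 4558 without an SKM-1 library, against 2562 with all 6.

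The sequence around the start of CD3D, both LCK starts, PRF1 and CD247 is shown. These were taken because CD3D, LCK and PRF1 were higher in NOMO-1 than in the other lines, while CD247 was highest in SKM-1. The windows run from 250 bases before to 50 after each start, 5′ to 3′ on the gene's strand (RefSeq, GRCh38.p14). Capitals mark matches on either strand to short motifs of transcription factors. AGGAAGT was searched for the ETS family, TGTGGT was searched for the RUNX family and CTTTGA was searched for TCF7 and LEF1. The GATA motif AGATAA was also searched and had no match in these windows. None of the motifs overlap each other in the windows shown. A match describes letters only.
CD3D, chr11:118342656-118342955, minus strand: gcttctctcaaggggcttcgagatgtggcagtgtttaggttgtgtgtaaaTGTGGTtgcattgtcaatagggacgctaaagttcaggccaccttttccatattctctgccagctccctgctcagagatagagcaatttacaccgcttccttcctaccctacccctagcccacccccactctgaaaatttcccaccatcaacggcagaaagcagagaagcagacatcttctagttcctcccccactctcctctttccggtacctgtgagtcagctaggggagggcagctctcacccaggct
LCK upstream start, chr1:32251015-32251314, plus strand: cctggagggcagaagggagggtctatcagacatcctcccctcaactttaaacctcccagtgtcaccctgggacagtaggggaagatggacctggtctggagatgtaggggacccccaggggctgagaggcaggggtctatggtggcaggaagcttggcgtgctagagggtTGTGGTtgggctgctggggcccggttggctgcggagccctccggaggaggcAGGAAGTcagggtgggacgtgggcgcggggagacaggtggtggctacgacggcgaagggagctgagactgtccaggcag
LCK downstream start, chr1:32273871-32274170, plus strand: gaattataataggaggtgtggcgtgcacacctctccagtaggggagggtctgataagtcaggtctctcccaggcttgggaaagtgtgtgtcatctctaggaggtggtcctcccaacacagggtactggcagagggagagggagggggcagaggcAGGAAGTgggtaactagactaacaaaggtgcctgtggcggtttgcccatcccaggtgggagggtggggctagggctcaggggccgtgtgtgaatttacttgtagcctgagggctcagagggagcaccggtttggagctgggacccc
PRF1, chr10:70602692-70602991, minus strand: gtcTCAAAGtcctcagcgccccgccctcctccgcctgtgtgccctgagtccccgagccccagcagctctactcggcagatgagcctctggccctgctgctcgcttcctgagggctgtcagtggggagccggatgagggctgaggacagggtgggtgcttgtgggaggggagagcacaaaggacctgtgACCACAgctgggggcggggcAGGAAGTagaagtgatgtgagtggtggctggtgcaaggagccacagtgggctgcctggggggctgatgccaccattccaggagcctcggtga
CD247, chr1:167518480-167518779, minus strand: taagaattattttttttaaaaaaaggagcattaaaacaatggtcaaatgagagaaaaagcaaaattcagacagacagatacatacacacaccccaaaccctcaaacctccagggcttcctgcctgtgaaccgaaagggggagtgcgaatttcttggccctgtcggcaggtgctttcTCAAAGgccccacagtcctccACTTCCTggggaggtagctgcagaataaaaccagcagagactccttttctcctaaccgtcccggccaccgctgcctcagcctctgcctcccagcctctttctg
The window of CD3D held 1 RUNX match. The upstream LCK window held 1 ETS and 1 RUNX match, and the downstream one held 1 ETS match. The PRF1 window held 1 match each to ETS, RUNX and TCF7/LEF1, and that of CD247, which was not high in NOMO-1, held 1 match each to ETS and TCF7/LEF1. Of 35116 windows of this length, 8.24% hold the ETS motif on either strand, 13.1% the RUNX motif, 12.9% the TCF7/LEF1 motif and 10.3% the GATA motif. In all, 6 of the 9 genes had a window in the table.

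Within NOMO-1, LCK and CD3D were lower with the NCAM1 shRNA and the other CD3 chains were not separable from their control. Each ratio below compares 1 library with 1 library, so it has no replicate check and its interval covers counting error only. LCK stood at 0.426 of its control level (95% exact interval 0.366 to 0.495), 2.35-fold lower, and CD3D stood at 0.782 (0.746 to 0.819), 1.28-fold lower. CD3E was at 0.948 of its control level (0.756 to 1.19), CD3G at 0.922 (0.743 to 1.14) and PRF1 at 0.847 (0.691 to 1.04), and these 3 intervals include 1.

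In SKM-1 the differences were larger and ran both ways. CD247 stood at 0.0944 of its control level (0.0676 to 0.129), 10.6-fold lower with the NCAM1 shRNA, from 44 reads against 421 in the control. CD2 stood at 9.71 times its control level (3.53 to 37.3), from 43 reads against 4. In MOLM-14 no member with reads in both libraries had an interval clear of 1, and the one with the most reads, CD3D, was at 1.04 (0.522 to 2.09). The SKM-1 pair also differed most over all genes, as its library correlation above shows, and the part of that in the CD247 and CD2 ratios was not tested.

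**Figure D2:**
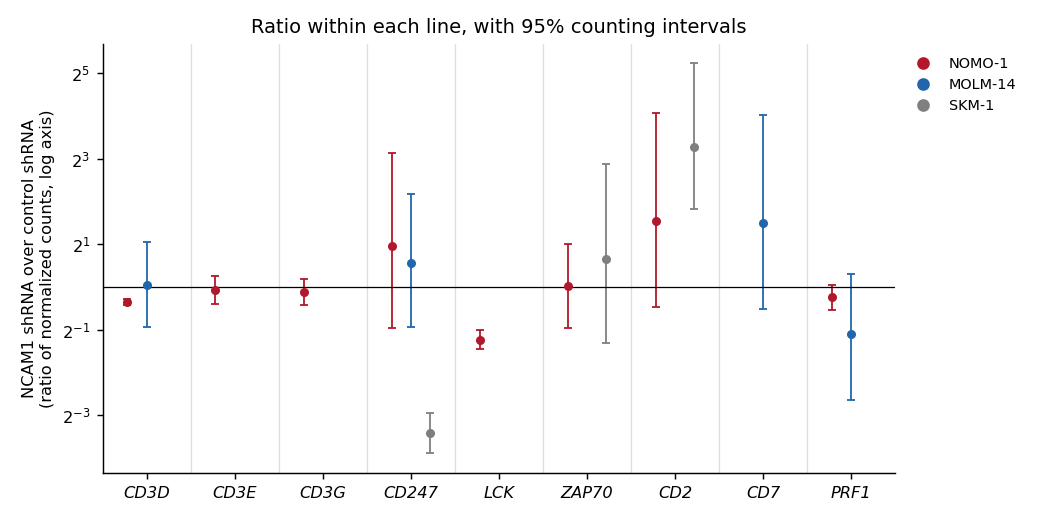
Ratio of normalized counts, NCAM1 shRNA over control shRNA, on a log axis, for members with at least 10 reads in a line over both libraries and at least 1 in each; red is NOMO-1, blue MOLM-14 and grey SKM-1, and bars are exact 95% counting intervals. LCK in NOMO-1 lies at 0.426 and CD247 in SKM-1 at 0.0944, both below 1, and CD2 in SKM-1 at 9.71, above it.

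Past 2-fold on log2(normalized count + 1), of the 6 tested members 0 were higher and 1 lower in NOMO-1, where 4.06% of tested genes were higher and 7.42% lower. The lower one was LCK. In MOLM-14 1 was higher and 0 lower, where 3.56% of tested genes were higher and 4.03% lower, and that 1 was LCK, with 1 read against 0. In SKM-1 2 were higher (CD3D and CD3E) and 2 lower (CD3G and CD247), where 15.7% of tested genes were higher and 16.5% lower, and all of these but CD247 had at most 5 reads in a library. The limma fit over the 3 lines, with the line as block, called 0 of 19575 genes (0%) for the NCAM1 shRNA, with 877 at an unadjusted p under 0.05, while edgeR called 0 and DESeq2 43.

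The genes of 9 related lists were compared between the lines in the same fit. Of the 22 genes of these lists called higher in NOMO-1, 9 had a mean under 10 normalized counts in the other 4 libraries, and of the 10 called lower, 2 had a mean under 10 in NOMO-1. Such genes passed the minimum only through the libraries where they were high, so a difference follows from their being tested; those named below are given with no p, and the list counts and medians include them. The counts are to be read against the 8.01% called higher and 5.08% called lower over all tested genes and against their median of 0.01.

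The receptor chains themselves were uneven between the lines. Of 10 genes of the receptor loci and their recombination, 9 were found and 7 were tested. Against the mean of the other lines, 2 were called higher in NOMO-1 and 1 lower, with a median log2 difference of 0.83 against 0.01 over all tested genes. TRDC, the delta chain constant gene, was at 300.1 with the NCAM1 shRNA and 454 with the control shRNA in NOMO-1. It was at 14.6 with the NCAM1 shRNA and 14.5 with the control shRNA in MOLM-14, and at 3.67 with the NCAM1 shRNA and 10.2 with the control shRNA in SKM-1, a log2 difference of 5.13 ± 0.433 (SE, adjusted p = 0.00581). RAG2, a subunit of the recombinase, was 4.28 higher on the log2 scale, at 42.0 with the NCAM1 shRNA and 23.6 with the control shRNA in NOMO-1 and at most 1.04 elsewhere. TRGC2, a gamma chain constant gene, was lower in NOMO-1 (log2 difference -2.12, SE 0.402, adjusted p = 0.0356), and its difference from MOLM-14 alone, -0.16, did not pass (adjusted p = 0.856).

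TRAC, the alpha chain constant gene, had its highest values in MOLM-14, and its difference between NOMO-1 and the other lines was not called. It was at 243 with the NCAM1 shRNA and 677 with the control shRNA in NOMO-1, at 902 with the NCAM1 shRNA and 1677 with the control shRNA in MOLM-14, and at 16.5 with the NCAM1 shRNA and 102 with the control shRNA in SKM-1. TRBC2, a beta chain constant gene, had 9.12 with the NCAM1 shRNA and 9.45 with the control shRNA in NOMO-1 and 0 reads elsewhere. The T cell surface gene CD8A was at 0.912 with the NCAM1 shRNA and 0 with the control shRNA in NOMO-1, and CD28 was at 6.39 with the NCAM1 shRNA and 3.78 with the control shRNA. The part of any other cell type in the levels of the CD3 genes was not tested. TRGC1 and TRGC2, and TRBC2 with its copy, are near-identical genes whose shared reads counting can split, and the exons of TRDC overlap those of another annotated gene, so these levels are uncertain.

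Of the 7 tested, TRAC, TRGC1, TRGC2 and RAG1 were lower with the NCAM1 shRNA in each of the 3 lines. The share of all tested genes lower in each of the 3 lines was not counted, so nothing is read from this. Past 2-fold, 4 of the 7 were lower and 0 higher in NOMO-1, 2 lower and 1 higher in MOLM-14, and 5 lower and 1 higher in SKM-1. Of all tested genes, 7.42% were lower and 4.06% higher in NOMO-1, 4.03% lower and 3.56% higher in MOLM-14, and 16.5% lower and 15.7% higher in SKM-1. The limma fit gave log2 differences of -1.64 for TRAC (SE 0.387, adjusted p = 0.779), -1.61 for TRGC1 (SE 0.348, adjusted p = 0.779) and -1.54 for TRGC2 (SE 0.379, adjusted p = 0.779), so none passed. DESeq2 gave an adjusted p of 0.0745 for TRAC, which did not pass either.

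**Figure D3:**
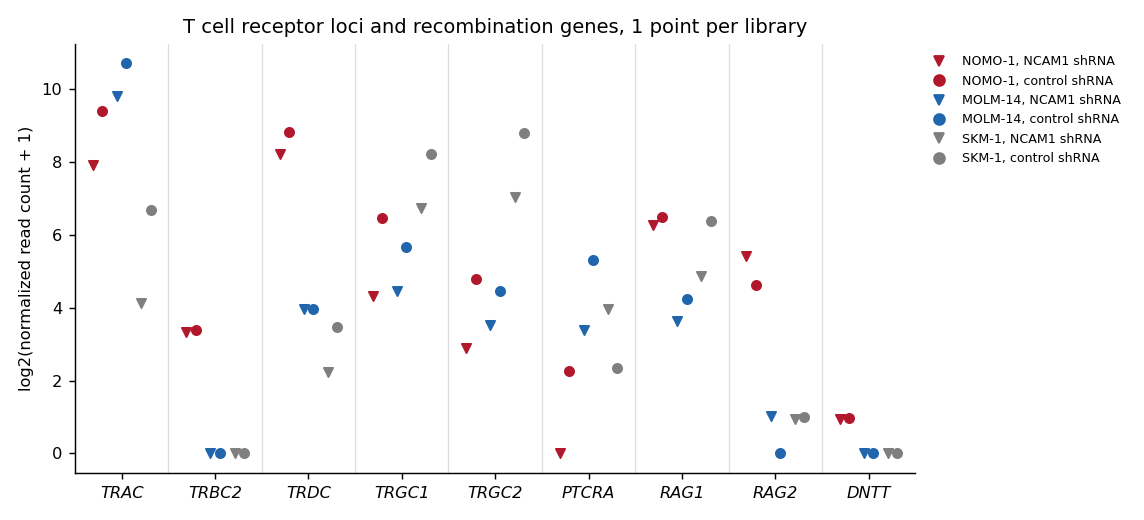
Levels of 9 receptor locus and recombination genes as log2(normalized read count + 1), drawn as for the 9 T cell genes above. TRDC and RAG2 are highest in the 2 NOMO-1 libraries, TRAC in MOLM-14 and TRGC2 in SKM-1, and the NCAM1 shRNA triangles of TRAC, TRGC1, TRGC2 and RAG1 lie below the control circles in each line.

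Most genes of the wider signalling machinery were not called between the lines, and more of those called were higher in NOMO-1 than lower. Of 27 tested receptor signalling genes, 7 were called higher in NOMO-1 and 1 lower (median log2 difference 0.80). Of the 7, 3 passed the minimum for testing only through NOMO-1. TRAT1, a receptor-associated transmembrane adaptor, was at 61.1 with the NCAM1 shRNA and 18.9 with the control shRNA in NOMO-1 and at 0 elsewhere (log2 difference 5.14). SH2D1A, the adaptor SAP, differed by 5.03, with no p for the same reason, and RASGRP1, a Ras activator, by 3.33 (adjusted p = 0.00921).

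Of 13 tested T cell surface genes, 3 were called higher and 2 lower (median 1.45). CD48, a ligand of CD2 family receptors, was at 3328 with the NCAM1 shRNA and 2574 with the control shRNA in NOMO-1 and at most 270.4 elsewhere (log2 difference 6.28, SE 0.328, adjusted p = 0.00306). CD6 was higher by 3.49 (adjusted p = 0.0463), and CD4, also a monocyte antigen, lower (log2 difference -2.50, adjusted p = 0.0372). SECTM1, which encodes a ligand of CD7, was lower (log2 difference -3.03). edgeR called 2 of the 13, with CD4 at an adjusted p of 0.0501 and CD6 at 0.0509. Against SKM-1 alone, limma called 5 of the 13 higher and 1 lower, SECTM1, so CD4 was not called lower there. Against MOLM-14 alone it called 1 higher and 1 lower. Over all tested genes it called 7.78% higher and 5.93% lower against SKM-1, and 8.01% higher and 5.26% lower against MOLM-14.

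Of 14 tested T cell transcription factor genes, 1 was called higher and 1 lower (median 0.39). EOMES, a T-box factor of cytotoxic lymphocytes, was higher by 4.51 on the log2 scale. NOTCH3 was lower than the mean of the other lines (log2 difference -2.21, adjusted p = 0.0272), and its level in SKM-1 was 3060 with the NCAM1 shRNA and 1935 with the control shRNA. Against MOLM-14 alone NOTCH3 was higher in NOMO-1, by 2.89 (adjusted p = 0.0203).

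Of 12 tested cytotoxic granule genes, 3 were called higher and 1 lower (median 0.27). GZMA, the tryptase-like granzyme A, was at 472 with the NCAM1 shRNA and 223 with the control shRNA in NOMO-1 and at most 0.918 elsewhere (log2 difference 8.11). GZMH was higher by 2.99 (adjusted p = 0.0412) and RAB27A, which serves granule release, by 1.10 (adjusted p = 0.0451). UNC13D, also of granule release, was lower (log2 difference -3.22, adjusted p = 0.00412). GZMB, another granzyme, was at 8.21 with the NCAM1 shRNA and 3.78 with the control shRNA in NOMO-1 and was not tested.

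Among markers of other blood cells, the NK receptor and myeloid ITAM lists had 1 call each, and the myeloid list had 3, all lower in NOMO-1. Of 8 tested NK receptor genes 1 was called higher (median 0.50), KIR2DL4 (4.66), named after its values were seen. The 3 most abundant of that list were not called: HCST, which encodes the adaptor DAP10, differed by -0.30 (adjusted p = 0.8), the SLAM family receptor CD244 by 0.14 (0.716) and CD160 by -1.18 (0.133). Of 10 tested genes of the myeloid ITAM pathway 1 was called higher, LAT2, an adaptor of B and myeloid cells (1.27, adjusted p = 0.0128), with a list median of 0.25. The kinases LYN, at -0.44 (adjusted p = 0.265), and BTK, at -0.20 (0.504), were not called. SYK, the myeloid relative of ZAP70, was at 4720 with the NCAM1 shRNA and 6641 with the control shRNA in NOMO-1 and was not called (adjusted p = 0.219). Of 11 tested B cell genes 4 were called higher and 1 lower (median 2.84), with MS4A1 (CD20) at 1988 with the NCAM1 shRNA and 144 with the control shRNA in NOMO-1 and at most 5.22 elsewhere (log2 difference 8.41). CR2, the complement receptor CD21, differed by 7.60 and FCRLA by 3.56 (adjusted p = 0.0194). PAX5, the B lineage factor, was lower (log2 difference -3.93), with 1032 with the NCAM1 shRNA and 1194 with the control shRNA in MOLM-14. Neither edgeR nor DESeq2 called PAX5. Of 14 tested myeloid genes 0 were called higher and 3 lower (median 0.24): the granule protease gene ELANE (log2 difference -10.19, adjusted p = 0.0206), the myeloid factor gene CEBPA (-2.79, adjusted p = 0.0155) and the Fc receptor gene FCGR1A (-2.16, adjusted p = 0.00742). KIR2DL4, GZMH and FCGR1A have close relatives that can share reads, so their levels are uncertain. For the NCAM1 shRNA, limma and edgeR called 0 genes in each of the 9 lists, and DESeq2 called 1, in the B cell list. In edgeR's line contrast, ELANE (adjusted p = 0.054) and NOTCH3 (0.0825) did not pass, and neither did SECTM1 and PAX5.

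**Figure D4:**
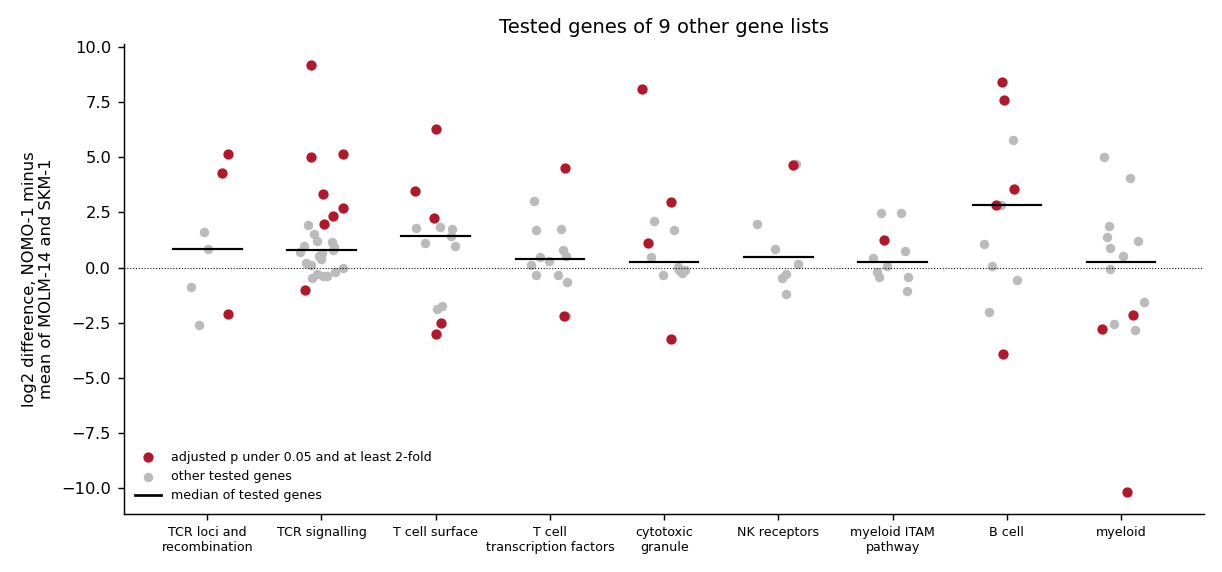
Log2 difference in level, NOMO-1 minus the mean of MOLM-14 and SKM-1, for the tested genes of 9 lists other than the 9 genes described here; red points passed an adjusted p under 0.05 and 2-fold, grey ones did not, and bars are list medians. MS4A1 at 8.41 and GZMA at 8.11 are among the highest points, and ELANE at -10.19 is the lowest.

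Most genes beside the members were not called between the lines. CD3E, CD3D and CD3G lie next to each other on chromosome 11, between MPZL2 and UBE4A. UBE4A, a ubiquitin ligase gene, was at 3306 with the NCAM1 shRNA and 3774 with the control shRNA in NOMO-1 and at 2643 to 3866 in the other 4 libraries, a log2 difference of 0.03. MPZL2, an adhesion protein gene, was at 654 with the NCAM1 shRNA and 458 with the control shRNA in NOMO-1. It was at 0 with the NCAM1 shRNA and 1.115 with the control shRNA in MOLM-14, and at 390.2 with the NCAM1 shRNA and 12.2 with the control shRNA in SKM-1 (log2 difference 5.75, adjusted p = 0.0499). Of 28 protein-coding neighbours of the members, 23 were tested, 2 were called higher and 2 lower, shares near those over all tested genes (8.01% higher and 5.08% lower), with a median of 0.14 against 0.01 over all tested genes. Beside MPZL2, the other higher one was IGSF3 near CD2 (5.08, adjusted p = 0.0289), at 588 with the NCAM1 shRNA and 737 with the control shRNA in NOMO-1. IGSF3 was at 2.09 with the NCAM1 shRNA and 0 with the control shRNA in MOLM-14. In SKM-1 it was at 812 with the NCAM1 shRNA, above both NOMO-1 values, and 55.9 with the control shRNA. Against SKM-1 alone, limma called neither MPZL2 (adjusted p = 0.256) nor IGSF3 (0.351). The lower ones were RCSD1 near CD247 (-1.09, adjusted p = 0.021) and SECTM1 near CD7, given above. RCSD1 was not called against SKM-1 alone (adjusted p = 0.133), and SECTM1 was not called against MOLM-14 alone. HDAC1, beside LCK, differed by 0.28 and was not called.

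**Figure D5:**
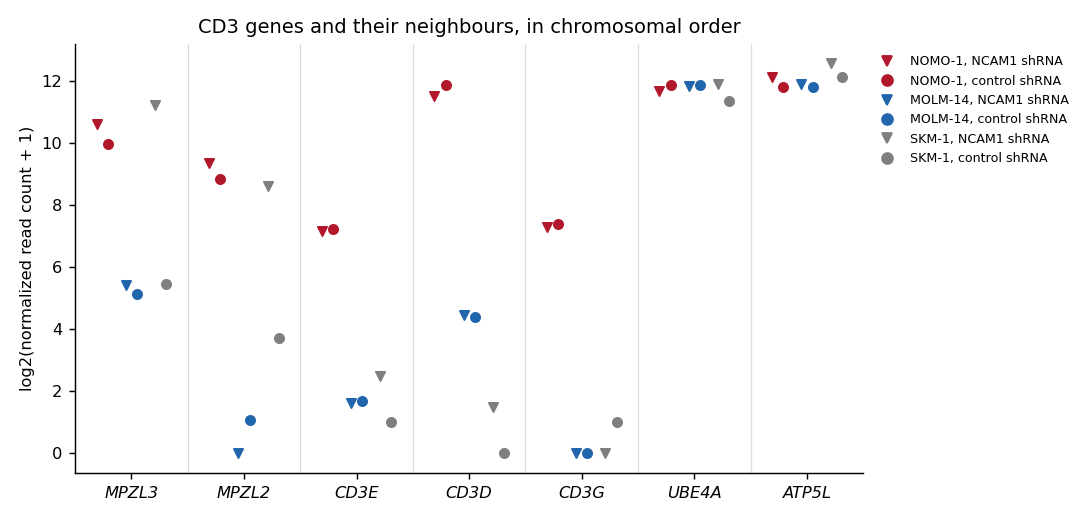
Levels of CD3E, CD3D and CD3G and their neighbours in chromosomal order as log2(normalized read count + 1), drawn as for the 9 T cell genes above. UBE4A and ATP5L lie at like levels in all 6 libraries. The CD3 genes are highest in the NOMO-1 libraries, and MPZL2 and MPZL3 are high in NOMO-1 and in SKM-1 with the NCAM1 shRNA.

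The genes whose levels most resembled the mean of CD3D, CD3E, CD3G and CD247 were sought over the 6 libraries among 5618 tested genes with an SD of at least 1. HERC2P3, a pseudogene with close copies and so uncertain, had the highest Pearson r (0.999), with 1627 with the NCAM1 shRNA and 1597 with the control shRNA in NOMO-1 and 82.5 to 104 elsewhere. The next 5 were LINC01060, AP001065.15, CTD-2134A5.3, VN1R40P and AP000525.9 (r = 0.998 to 0.999), each at 0 reads outside NOMO-1. All of these r rest on the contrast of 2 NOMO-1 libraries with 4 others, and the libraries of a line share their source. With CD247 left out of the mean, a choice made after seeing the data, RORB, a nuclear receptor gene, came first (r = 0.998), at 5653 with the NCAM1 shRNA and 5232 with the control shRNA in NOMO-1 and at most 3.35 elsewhere.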

How the data were processed

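In all, 6 libraries were analysed, 3 with the NCAM1 shRNA and 3 with the control shRNA. The authors deposited a signal table of read counts per gene scaled by library size factors, and a table of log2 values transformed from it by a method the sources do not name, used as an alternative. Per the submitters' processing notes, the tools were STAR, HTSeq 0.6.1p1, bcl2fastq 1.8.4 and DESeq2 1.12.4, on build hg19. For the annotation and the strand setting of counting, the sources used here give nothing, so a gene and an overlapping antisense partner cannot be told apart. Exon lengths, gene order and promoter windows came from GRCh38, another build than that of the counts.

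The members and gene lists were chosen with earlier results of these data known. Dividing each library by its smallest step gave whole reads for 100.0% of values (tolerance 0.001). For folds between lines, a gene at 0 reads over both libraries of a line was set to a floor of 3 reads. Values of 0 reads were left at 0 in the fits and in the shRNA ratios. Intervals of ratios are exact conditional (binomial) 95% intervals on pooled or single libraries. Floors and intervals cover counting error only. Genes with a mean normalized count of at least 10, 19575 in all, were tested with limma 3.58.1 in R 4.3.3 (two-sided, with a mean-variance trend) on log2 of the normalized count plus 1, with line and shRNA as terms, Benjamini-Hochberg adjusted over all of them. This scale understates the differences of weakly expressed genes. Line contrasts were called at an adjusted p under 0.05 and at least 2-fold, the shRNA contrast at an adjusted p under 0.05. The fit has 2 residual and 2.81 prior degrees of freedom.

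The line pairs the libraries: deviations from the hairpin means correlated across genes at 0.863 in NOMO-1, 0.850 in MOLM-14 and 0.710 in SKM-1. edgeR 4.0.16 and DESeq2 1.42.0 ran on the recovered reads as alternatives, beside other pseudocounts, filters, scaling, no trend, no block and each library left out. Named genes were, from each list, up to 4 called genes of largest difference, or the 3 most abundant where under 2 were called; genes outside that rule were named after their values were seen, and 1 gene that the rule names is not reported here. The steps were tested on simulated counts.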

Additional observations from a re-analysis of the deposited data

Results flagged for a closer look

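PTCRA, the pre-T cell receptor alpha gene, differed in direction between 2 lines. It was 3.61 times its control level with the NCAM1 shRNA in SKM-1 (95% counting interval 1.17 to 14.9), at 14.7 normalized counts against 4.06 with the control shRNA. In MOLM-14 it was 0.241 times its control level (0.102 to 0.511), at 9.395 with the NCAM1 shRNA against 39.0 with the control shRNA. With 1 library per line and hairpin, the difference between the lines was not tested.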

How the results depend on the processing

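Genes called between NOMO-1 and the other lines numbered 2562, of which 1567 were higher and 995 lower. The count was 1670 with a filter at a mean of 50, where fewer genes were tested. edgeR called 1519 higher and 601 lower. With each library left out in turn, the calls ranged from 0 to 4558 against both lines, from 0 to 4884 against MOLM-14 and from 0 to 5038 against SKM-1, and the 0 came without either NOMO-1 library. The NCAM1 shRNA contrast had 0 calls in limma under all these alternatives, and 43 in DESeq2. Without the replicate block it also had 0 calls in limma, so the block changed no call. Differences of the 6 tested members kept their direction under all 15 alternatives each, 90 values in all. The members were chosen with these levels known. In the other 4 libraries, 4 of the 6 (CD3E, CD3G, LCK and PRF1) had a mean under 10 normalized counts. A reversal was therefore hardly possible for them, and nothing is read from the kept direction. CD3D ranged from 7.31 with the authors' transformed values to 9.69 without the NOMO-1 NCAM1 shRNA library, and CD3G from 4.18 with the transformed values to 9.24 in edgeR. CD247 was -3.68 without the NOMO-1 NCAM1 shRNA library and -1.45 without the NOMO-1 control library. Counts of called genes in the 9 lists stayed within 1.5 times the main count in 76 of 135 cases, and fell to 0 in all 9 lists without either NOMO-1 library. Total-count scaling moved the median difference of all genes by 0.0967. Depth limits CD7, CD2 and ZAP70, which had at most 43 reads in a library.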
